A study of Bubalus bubalis with 6 samples.

Results

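Solute carrier genes encode membrane proteins that move ions, sugars, amino acids, vitamins and metabolites across the plasma membrane, the mitochondrial inner membrane and vesicle membranes. The regions described here are the array probes whose gene name begins with SLC and a digit, or with SLCO. The rule found 383 probes in 182 gene names, of 19762 named probes and 177440 probes in all. The name alone decided membership, so 3 of the 182 are not carriers: SLC7A6OS, named for lying on the strand opposite a carrier, and 2 scaffold genes named after the sodium/proton exchanger that their products bind.

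Sperm DNA from frozen semen of water buffalo (Bubalus bubalis) was compared between 3 subfertile bulls (1, 4 and 5) and 3 high-fertile bulls (2, 3 and 5), with 1 array per bull. The labels give no breed, age or criterion of fertility, and name neither a treatment nor a step that removes other cells from semen. Sheared DNA was immunoprecipitated (IP) with an antibody against 5-methylcytosine, labelled with Cy5 and hybridised against the same bull's input DNA in Cy3, on an array made for buffalo CpG islands and promoters. The question was how sperm DNA methylation differs with fertility.

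Cytosine methylation in mammals sits mainly at CpG dinucleotides, and most of the sperm genome is methylated outside CpG-rich promoters. Sperm rely on carriers for intracellular pH, volume, energy substrates and the uptake of carnitine and taurine from the fluids they pass through. A level below is log2(IP/input), centred on the array median at 0, so a positive level marks a probe with more antibody-bound DNA than the median probe. It is not a share of methylated cytosines. A difference is the subfertile minus the high-fertile level on the same log2 scale.

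A probe was tested where its input signal stood well above background on all 6 arrays and no array marked it as non-uniform. This held for 134 solute carrier probes in 92 genes, 35.0% of the 383, against 38.7% of all named probes and 62.4% of all probes. The other 90 genes had no tested probe. Coverage was thin, since 65 of the 92 genes had 1 tested probe and 9 had 3 or more. The IP signal of the tested solute carrier probes was well above background at 100%, 60.4% and 91.8% in subfertile bulls 1, 4 and 5, and at 47.8%, 81.3% and 84.3% in high-fertile bulls 2, 3 and 5. Over all tested probes the shares were 99.9%, 73.7% and 97.2%, and 59.2%, 88.0% and 96.0%, in the same order. In every bull except subfertile bull 1 the solute carrier share was thus the lower. Where a bull's IP signal was not well above background, its level there is only a bound. A difference that uses such a level is not an exact value, and not every such difference is marked below. The arrays were grouped by scan date into 2 sessions. Subfertile bull 4 and high-fertile bulls 2 and 3 were scanned on a first date. Subfertile bulls 1 and 5 and high-fertile bull 5 were scanned on later dates, which were pooled as 1 session. Subfertile bull 5 and high-fertile bull 5 shared a slide, and the other arrays, subfertile bull 1 among them, were on another. Subfertile bull 1 was also extracted with another software protocol than the other 5 arrays. Across the 92 genes, levels correlated at 0.46 to 0.84 between bulls of a session and at -0.23 to 0.29 between bulls of different sessions. Over all genes the ranges were 0.48 to 0.79 and -0.22 to 0.10, so the split by session was not particular to solute carriers. These values are a description, since genes share arrays. Of marker genes, 7 of 24 for sperm and germline, 3 of 13 for leukocytes and 4 of 10 for epithelium had a tested probe. Their median levels spanned -0.41 to 0.30 in subfertile and -0.26 to 1.10 in high-fertile bulls for the sperm list, 0.05 to 0.18 and -0.29 to 0.28 for the leukocyte list, and -0.27 to 0.13 and 0.04 to 0.06 for the epithelial list. DNA levels of marker genes do not identify a cell type, and the part of other cells in the results was not tested.

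The probes shown first carry the highest and lowest levels of the 134, and capitals mark the CpGs. Each has 60 bases, and coordinates are those of the deposited files, whose genome build and probe strand are not given in the sources used here. The files place no probe in an exon, intron or promoter. SLC36A2 moves glycine and proline into cells with protons, SLC13A1 takes up sulfate with sodium, and SLC19A1 is the reduced folate carrier.
SLC36A2 chr7:62237256-62237315: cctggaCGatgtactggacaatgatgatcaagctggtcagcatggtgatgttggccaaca
SLC13A1 chr4:90541866-90541925: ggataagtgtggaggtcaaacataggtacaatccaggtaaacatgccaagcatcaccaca
SLC19A1 chr1:148202703-148202762: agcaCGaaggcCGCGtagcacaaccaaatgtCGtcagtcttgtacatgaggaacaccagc
The 3 lowest belong to SLC5A6, which takes up biotin and pantothenate, to SLC7A6OS and to SLC38A8, an amino acid transporter. Their order rests in part on bounds, since the IP signal was not well above background in subfertile bull 4 and high-fertile bull 2 at SLC5A6, in these and high-fertile bull 3 at SLC7A6OS, and in high-fertile bulls 2 and 5 at SLC38A8.
SLC5A6 chr11:74506005-74506064: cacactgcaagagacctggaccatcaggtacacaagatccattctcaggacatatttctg
SLC7A6OS chr18:34702081-34702140: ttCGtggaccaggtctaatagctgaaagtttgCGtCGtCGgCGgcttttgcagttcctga
SLC38A8 chr18:9581409-9581468: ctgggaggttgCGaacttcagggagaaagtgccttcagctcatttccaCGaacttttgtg
High and low levels both occurred on probes with and without CpG: the SLC13A1 and SLC5A6 probes hold none, the SLC19A1 probe 4 and the SLC7A6OS probe 5.

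No solute carrier gene passed the test for a difference between subfertile and high-fertile bulls. Of the 92 genes, 0 passed an adjusted p of 0.05 in limma (Benjamini-Hochberg over 4286 genes), and 0 had an unadjusted p under 0.05, where the background over all genes was 0% and 0.793%. The 3 subfertile bulls lay entirely above or below the 3 high-fertile bulls at 0 of the 92 genes, against 1.94% of all genes above and 1.94% below. The median difference was 0.08, with 53 genes above and 39 below 0, against a median of 0.02 over all genes, of which 52.2% were above 0. The median standard error was 0.42, and for 25 of the 92 genes the 95% interval of the difference lay within 1 log2 unit of 0, against 34.6% of all genes. For the rest of the 92 the interval reached beyond 1 log2 unit, so the counts do not show that the groups were alike.

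**Figure D1:**
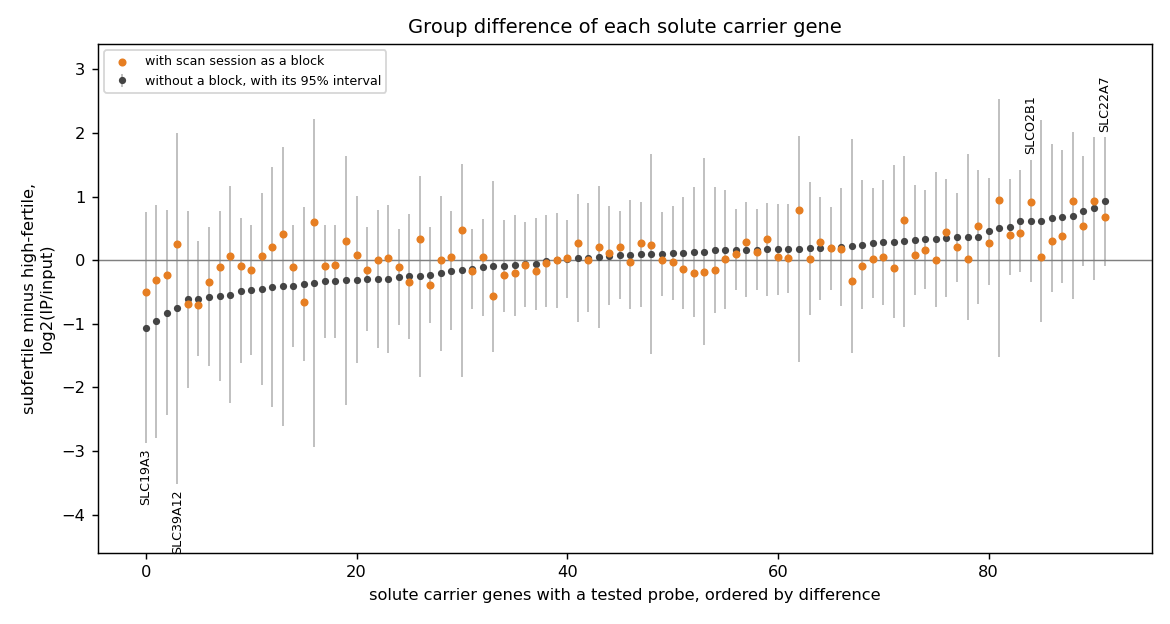
Group difference (y axis, subfertile minus high-fertile, log2) of each of the 92 solute carrier genes in order of size, with its 95% interval as a bar and the value with scan session as a block as an orange point. Differences run between -1.06 for SLC19A3 and 0.93 for SLC22A7, and every interval includes 0.

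At the upper end stood SLC22A7, an organic anion transporter, and SLC7A4, a member of the cationic amino acid transporter family whose own substrate is not established. SLC22A7 had levels of 0.59, 0.06 and 0.48 in subfertile bulls 1, 4 and 5, against -0.40, -1.38 and 0.13 in high-fertile bulls 2, 3 and 5, a difference of 0.93 ± 0.43 (SE, n = 3 each). High-fertile bull 5 lay above subfertile bull 4, so the groups overlapped. SLC7A4 had 1.40, 0.80 and 1.27 in the subfertile bulls and 0.31, -0.13 and 0.95 in the high-fertile bulls, a difference of 0.78 ± 0.37. Again high-fertile bull 5 was the value inside the subfertile range. At both genes the levels of subfertile bull 4 and high-fertile bulls 2 and 3 are bounds. At the lower end, SLC19A3, a thiamine transporter, had -0.88, -0.26 and -0.64 in the subfertile bulls, against 1.10, 1.74 and -1.43 in the high-fertile bulls, a difference of -1.06 ± 0.77. Both high-fertile bulls of the first scan date stood high. The levels of high-fertile bull 5, of a later date, and of subfertile bull 4 are bounds, so the difference is not an exact value.

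The 5 tested sugar transporter genes all had differences above 0, with a median of 0.61. SLC2A1, the main glucose transporter of many cells, had -0.15, 0.80 and 0.23 in subfertile bulls 1, 4 and 5, against -1.36, 0.29 and -0.49 in high-fertile bulls 2, 3 and 5, a difference of 0.82 ± 0.48. The only overlap was high-fertile bull 3 above subfertile bulls 1 and 5, and the levels of subfertile bull 4 and high-fertile bulls 2 and 3 are bounds. SLC45A1, a proton-linked sugar transporter, had a difference of 0.61 ± 0.34 and SLC2A10, another facilitative sugar transporter, one of 0.70 ± 0.56. SLC2A8 and SLC2A11, of the same facilitative family, had differences of 0.04 ± 0.37 and 0.09 ± 0.35. None of the 5 passed the test.

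Among carriers of ions, the sodium/proton exchangers SLC9A9, of endosomes, and SLC9A3, of kidney and gut, had differences of 0.17 ± 0.31 and 0.17 ± 0.32. The 5 bicarbonate and anion exchangers had a median of -0.25, with 2 above and 3 below 0, and the smallest p fell to SLC4A7, a sodium bicarbonate cotransporter, at -0.47 ± 0.44. The 4 cation-chloride cotransporters had a median of 0.23. SLC12A3, the thiazide-sensitive sodium chloride cotransporter, led them with 0.62 ± 0.68, in which the levels of subfertile bull 4 and high-fertile bull 2 are bounds. The sodium/calcium exchangers SLC8A3 and SLC24A6 had -0.41 ± 0.94 and -0.17 ± 0.40, and the 3 metal carriers a median of 0.17, led by the zinc transporter SLC30A3 at 0.46 ± 0.36.

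Amino acid and neurotransmitter carriers were the most numerous class, with 18 tested genes, a median difference of 0.12, and 12 genes above and 6 below 0. SLC6A2, the noradrenaline transporter, had 0.27, 0.02 and -0.20 in subfertile bulls 1, 4 and 5, against -0.73, -0.72 and -0.02 in high-fertile bulls 2, 3 and 5, a difference of 0.52 ± 0.32. SLC7A8, which exchanges neutral amino acids, had 0.35 ± 0.40. The 10 mitochondrial carriers had a median of -0.15, with 3 above and 7 below 0. SLC25A21, which carries oxodicarboxylates, had -1.24, 0.69 and -0.44 in the subfertile bulls and 1.02, 1.84 and -0.96 in the high-fertile bulls, a difference of -0.96 ± 0.78. Both groups spanned more than 1 log2 unit, and the level of high-fertile bull 5 is a bound. SLC25A26, which brings the methyl donor S-adenosylmethionine into mitochondria, had -0.62 ± 0.59, a difference that bounds enter.

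The 10 genes of the remaining families (vitamins, fatty acids, peptides and others) had a median difference of -0.39, with 2 above and 8 below 0. SLC19A1 had a difference of 0.67 ± 0.50, opposite in sign to that of SLC19A3 in the same vitamin family. The level of subfertile bull 4 at SLC19A1 is a bound. SLC23A3, of the ascorbate transporter family, had 0.06, -1.01 and 0.03 in subfertile bulls 1, 4 and 5, against 0.34, 0.57 and -0.02 in high-fertile bulls 2, 3 and 5, a difference of -0.60 ± 0.38 in which the levels of subfertile bull 4 and high-fertile bull 2 are bounds. With scan session as a block the median of these 10 genes was -0.09, and that of the sugar carriers 0.43. The 8 organic ion carriers had a median of 0.23 (6 above, 2 below), the 8 nucleoside and nucleotide sugar carriers 0.14 (7 above, 1 below), the 5 vesicular carriers 0.05, the 3 monocarboxylate carriers -0.25, and the 6 carriers of phosphate, sulfate and carboxylates -0.20. Among the genes of lowest p in these smaller classes, none of which passed, the differences were 0.69 ± 0.44 for SLCO3A1, an organic anion carrier, 0.37 ± 0.45 for SLC35B1 of the nucleotide sugar family, -0.30 ± 0.56 for the acetyl-CoA transporter SLC33A1, 0.36 ± 0.30 for the lactate exporter SLC16A3 and -0.56 ± 0.57 for SLC13A1.

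With scan session as a block, 0 of the 92 genes passed the adjusted threshold and 1 had an unadjusted p under 0.05, where the background was 2.66%. That gene was SLCO2B1, an organic anion carrier, with a difference of 0.91 ± 0.25 (limma, adjusted p = 0.999 over all genes) against 0.62 ± 0.41 without the block. Its levels were -0.49, 0.27 and -0.54 in subfertile bulls 1, 4 and 5, against -0.81, -0.31 and -1.50 in high-fertile bulls 2, 3 and 5. Of the 6 IP signals that of subfertile bull 1 alone was well above background, so the other 5 levels, all 3 of the first date among them, are only bounds and the difference is not an exact value. The block brought the median standard error to 0.30, and 53 genes then had intervals within 1 log2 unit of 0.

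On the first scan date alone, 0 genes passed and 2 (SLC19A3 and SLC23A3, at -1.68 and -1.46) had an unadjusted p under 0.05 (2.17%, background 2.71%). Subfertile bull 4 was alone in its group on that date, its spread was assumed equal to that of the other bulls, and its levels at both genes are bounds, as is that of high-fertile bull 2 at SLC23A3. On the later dates alone 3 of 92 genes passed (3.26%, background 2.22%), each on 1 probe and with 1 residual degree of freedom, since high-fertile bull 5 was alone in its group there and its spread was likewise assumed. SLC10A4, an orphan member of the bile acid carrier family, had -0.30 and 0.80 in subfertile bulls 1 and 5 against -1.46 in high-fertile bull 5 (1.70 ± 0.35, limma, adjusted p = 0.0149). SLC39A12, a zinc importer, had -0.92 and -1.53 against -2.61 (1.39 ± 0.30, limma, adjusted p = 0.0197), and SLC17A6, a vesicular glutamate transporter, -0.22 and -0.33 against -1.33 (1.06 ± 0.27, limma, adjusted p = 0.0479). The IP signal of high-fertile bull 5 was not well above background at any of the 3, so its level there is only a bound. At SLC10A4 the 0.80 of subfertile bull 5 is a bound as well, so its difference of 1.70 is neither an exact value nor a lower limit. On the first date the same 3 genes had differences of -1.22, -0.86 and -1.05, in which the level of subfertile bull 4 is a bound at all 3 and that of high-fertile bull 2 at SLC10A4 and SLC17A6. The test of a group difference that depends on the session passed for 0 of the 92 genes. Its unadjusted p was under 0.05 for 7 (7.61%, background 4.18%). By single probes it passed for 0 of 134, and 15 had an unadjusted p under 0.05 (11.2%, background 4.85%). This test too rests on 1 subfertile bull on the first date and 1 high-fertile bull on the later dates.

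Single probes gave the same count. Of 134 solute carrier probes, 0 passed (limma, Benjamini-Hochberg over 110686 probes) and 2 had an unadjusted p under 0.05, with a background of 0% and 1.84%. The 3 subfertile bulls lay above all high-fertile bulls at 3 probes (2.24%, background 3.2%) and below them at 2 probes (1.49%, background 2.58%). Both shares were near or under the background. The 5 probes fell in 3 genes, and in SLC7A6OS and in SLC3A2, the shared heavy chain of several amino acid exchangers, 1 probe lay above and another below. The remaining probes of these 5 are printed to show how close the opposed probes of 1 gene stand.
SLC7A6OS chr18:34702467-34702526: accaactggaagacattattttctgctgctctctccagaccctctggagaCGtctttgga
SLC3A2 chr29:42846617-42846676: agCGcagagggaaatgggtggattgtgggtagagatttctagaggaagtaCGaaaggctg
SLC3A2 chr29:42846502-42846561: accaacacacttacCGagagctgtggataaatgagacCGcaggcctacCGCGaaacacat
SLC5A8 chr5:70038409-70038468: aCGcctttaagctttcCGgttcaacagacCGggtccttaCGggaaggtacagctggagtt

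At SLC3A2 the probe starting at 42846617 had levels of 0.49, 0.70 and 0.51 in subfertile bulls 1, 4 and 5, against 0.04, 0.14 and 0.36 in high-fertile bulls 2, 3 and 5, a difference of 0.38 ± 0.29. The probe starting at 42846502 had -0.10, -0.08 and -0.09 in the subfertile bulls and 0.09, 0.60 and 0.09 in the high-fertile bulls, a difference of -0.35 ± 0.30. At the second probe the level of high-fertile bull 2 is a bound. The mean of both probes, the gene value, differed by 0.02 ± 0.26. At SLC7A6OS the probe starting at 34702081 had -0.58, -0.22 and -0.97 in the subfertile bulls and -1.87, -1.54 and -1.08 in the high-fertile bulls, a difference of 0.91 ± 0.34. Its IP signal was not well above background in subfertile bull 4 and high-fertile bulls 2 and 3. The probe starting at 34702467 had -0.30, -0.54 and -0.22 in the subfertile bulls, against 0.13, 0.08 and 0.28 in the high-fertile bulls, a difference of -0.51 ± 0.29, with subfertile bull 4 again a bound. The next probe of the same gene, which starts at 34702487 and overlaps it, had a difference of 0.09 ± 0.29, with overlapping groups. SLC5A8, which takes up short monocarboxylates with sodium, had -0.45, -0.46 and -0.56 in the subfertile bulls and -1.23, -1.35 and -0.67 in the high-fertile bulls at the probe starting at 70038409, a difference of 0.59 ± 0.31. High-fertile bulls 2 and 3 had no IP signal well above background there.

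Over both groups, 4 of the 92 genes had levels apart from the array median (4.35%, background 3.29%; limma, Benjamini-Hochberg), 2 above (background 0.21%) and 2 below (background 3.08%). The split was 4 above and 12 below with normexp background correction, 2 above and 1 below in the deposited series table, 4 above and 0 below of all 182 genes without the filter on dim probes, and 0 above and 2 below of 43 genes where IP also had to be well above background on all arrays. With each array centred on the tested probes, or with levels taken relative to probes of equal CpG number, 0 passed. Leaving out any 1 bull left 0 genes, except that 3 passed without high-fertile bull 5. No share over all genes was set beside these alternative counts. With scan session as a term, 32 of the 92 genes passed (34.8%, background 26.1%). Of these, 11 were above (background 6.44%) and 21 below (background 19.6%).

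SLC13A1, the sulfate carrier, had levels of 0.86, 1.88 and 0.88 in subfertile bulls 1, 4 and 5, and 2.02, 2.67 and 0.62 in high-fertile bulls 2, 3 and 5. Its mean of 1.49 ± 0.29 (SE, limma, adjusted p = 0.047) came from 1 probe without CpG, above the median in all 6 bulls. SLC19A1, the folate carrier, had 2.16, 0.93 and 2.05 in the subfertile bulls and 1.13, 0.27 and 1.74 in the high-fertile bulls, a mean of 1.38 ± 0.25 (limma, adjusted p = 0.0459) in which the level of subfertile bull 4 is a bound. The 2 genes ran opposite ways by session: SLC13A1 stood higher on the first date and SLC19A1 on the later dates, each beyond the test threshold for the session (-1.37 and 1.10, later minus first). Below the median, SLC38A8 had -0.61, -0.62 and -1.46 in the subfertile bulls and -1.70, -0.90 and -0.71 in the high-fertile bulls, a mean of -1.0 ± 0.20 (limma, adjusted p = 0.047). The levels of high-fertile bulls 2 and 5 there are bounds. SLC25A39, which imports glutathione into mitochondria, had -0.65, -1.12 and -0.72 in the subfertile bulls and -1.18, -0.56 and -0.59 in the high-fertile bulls. Its mean over 2 overlapping probes with 4 CpGs each was -0.80 ± 0.16 (limma, adjusted p = 0.047). Only 1 of these 2 probes had an IP signal well above background on all arrays, with a level of -0.84.

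**Figure D2:**
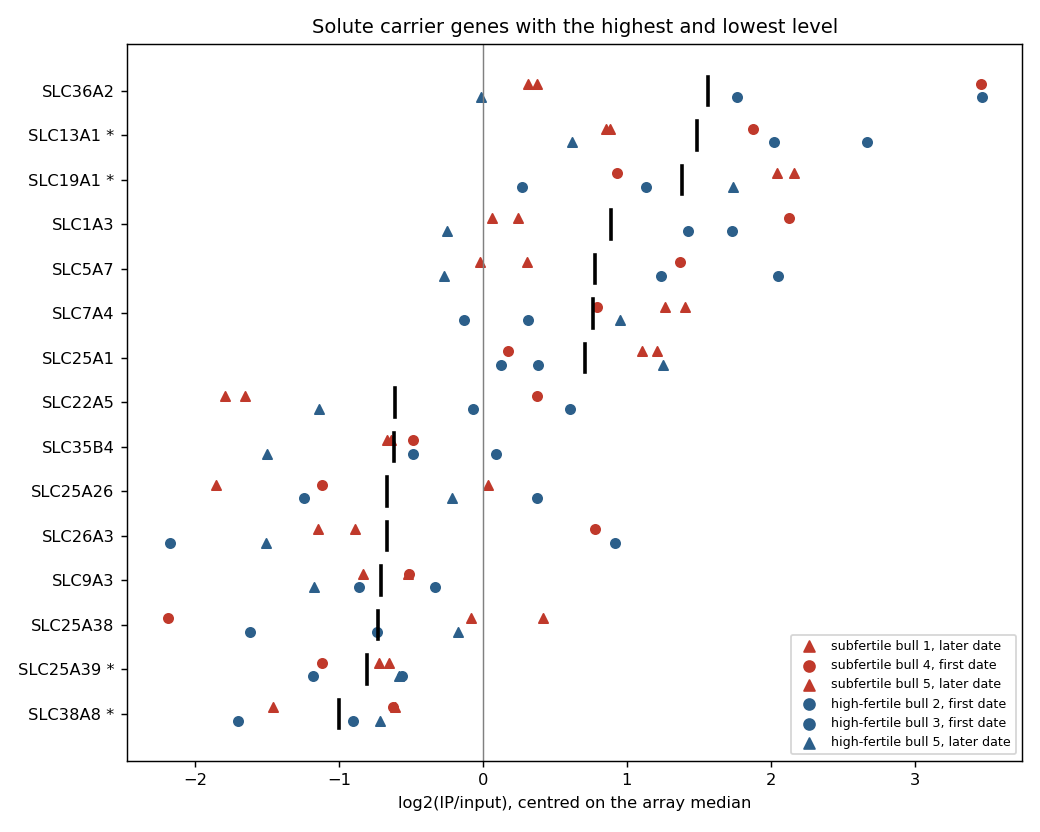
Level of solute carrier genes among the 8 highest and 8 lowest in every bull (x axis, log2(IP/input) centred on the array median), with subfertile bulls in red above high-fertile bulls in blue, circles for the first scan date, triangles for later dates and a black bar for the mean of the group means. Asterisks mark the 4 genes past the threshold, and for SLC36A2, SLC1A3 and SLC5A7 all circles lie to the right of all triangles.

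Other genes had levels as far from the median but did not pass. SLC36A2 had the highest mean of all, 1.56 ± 0.55, from 0.38, 3.46 and 0.31 in subfertile bulls 1, 4 and 5 and 1.76, 3.47 and -0.01 in high-fertile bulls 2, 3 and 5. It stood near the median in all 3 bulls of the later dates. The glutamate transporter SLC1A3 (0.89 ± 0.36) and the choline transporter SLC5A7 (0.78 ± 0.32) had the same order of bulls by date. SLC7A4 (0.77 ± 0.18) and the mitochondrial citrate carrier SLC25A1 (0.71 ± 0.22) had their 3 highest values in the bulls of the later dates. Toward the low end were the mitochondrial glycine carrier SLC25A38 (-0.73 ± 0.36), SLC9A3 (-0.71 ± 0.16), the intestinal chloride/bicarbonate exchanger SLC26A3 (-0.67 ± 0.43), SLC25A26 (-0.67 ± 0.30), the nucleotide sugar transporter SLC35B4 (-0.61 ± 0.21) and SLC22A5, the carnitine transporter (-0.61 ± 0.34). At SLC35B4 and SLC22A5 none of the 3 high-fertile bulls had an IP signal well above background, and their levels there are bounds. At SLC22A5 the levels of subfertile bulls 4 and 5 are bounds too. No tested probe of SLC7A4, SLC25A1, SLC25A38, SLC26A3 or SLC25A26 had an IP signal well above background on all arrays. Bounds enter their levels as well. SLC9A3 stood at -0.57 where only probes with IP well above background on all arrays were used. With scan session as a term in the level test, several of these genes passed (limma, adjusted p between 0.0078 and 0.035). They were SLC36A2, SLC1A3, SLC5A7, SLC7A4, SLC25A1, SLC25A38, SLC9A3, SLC35B4 and SLC22A5. SLC26A3 and SLC25A26 did not pass there either.

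Levels on the same side of the median in all 6 bulls were found above it at 8 genes (8.7%, background 3.22%) and below it at 14 (15.2%, background 18.8%). By single probes, 24 of 134 passed the level test (17.9%, background 17.7%), 7 above and 17 below (background 2.74% and 15%). That split was 10 above and 7 below with arrays centred on the tested probes, and 10 and 9 relative to probes of equal CpG number. It was 5 and 23 with normexp, and 30 and 7 over all 383 probes without the filter on dim probes. With scan session as a term and all 6 bulls it was 16 and 36 (background 8.04% and 26.5%). Without subfertile bulls 1 and 5 in turn 8 and 2 probes passed, and without high-fertile bulls 2 and 3 in turn 10 and 14. Besides the probes of genes already named, those above included SLC16A3 (0.55, adjusted p = 0.0369 over probes and 0.08 over genes, limma), the exporter of lactate, and those below included SLC2A11, SLC12A5 and SLC1A5.

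More genes differed between the scan sessions than between the fertility groups. The sessions hold different bulls, so session and bull cannot be told apart. Between sessions 27 of 92 genes passed (29.3%, background 20.1%; limma, with group as a term), 11 higher and 16 lower on the later dates (background 7.3% and 12.8%), while 0 passed between fertility groups in the same fit. The split was 19 higher and 15 lower with normexp, 5 and 24 with arrays centred on tested probes, 4 and 17 relative to probes of equal CpG number, and 3 and 63 over all 182 genes without the filter on dim probes. By single probes 22 of 134 passed (16.4%, background 8.08%). Without subfertile bull 4, or without high-fertile bull 5, 0 genes passed. Either omission leaves 1 group within a single session. With group as a term, the session estimate then rests on the other group alone, 1 bull against 2. Without subfertile bulls 1 and 5 in turn 9 and 6 passed, and without high-fertile bull 2, 37 passed. Of the probes, 0 passed when any 1 of subfertile bulls 1, 4 and 5 or high-fertile bull 5 was left out, and 53 passed without high-fertile bull 2.

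SLC39A12, the zinc importer, fell by 3.06 ± 0.50 on the later dates (limma, adjusted p = 0.013). Its levels were -0.92, -1.53 and -2.61 in subfertile bulls 1 and 5 and high-fertile bull 5 on the later dates, against 0.71, 1.43 and 1.72 in subfertile bull 4 and high-fertile bulls 2 and 3 on the first, with subfertile bull 4 and high-fertile bull 5 as bounds. SLC36A2 fell by 2.87 ± 0.46. The sodium/calcium exchanger SLC8A3 fell by 2.47 ± 0.36 and SLC25A21 fell by 1.96 ± 0.38. SLC8A3 had -1.08, -1.14 and -1.22 on the later dates and 1.66, 0.39 and 1.50 on the first, in the same order of bulls. In the other direction, SLC12A3 rose by 1.71 ± 0.31, with 1.45, 0.93 and 0.72 on the later dates against -0.94, -0.40 and -0.74 on the first, of which those of subfertile bull 4 and high-fertile bull 2 are bounds. SLC25A38 rose by 1.68 ± 0.41, and the carboxylate carriers SLC13A3 and SLC13A5, the second of which takes up citrate, by 1.41 ± 0.27 and 1.21 ± 0.26. Bounds enter these too, from subfertile bull 4 at SLC25A38 and SLC13A3, from high-fertile bull 2 at SLC25A38 and at 2 of the 3 SLC13A5 probes, and from high-fertile bull 5 at SLC25A21. At SLC36A2 and SLC8A3 all 6 IP signals were well above background. For each of these genes apart from SLC13A5 the value rests on 1 probe.

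**Figure D3:**
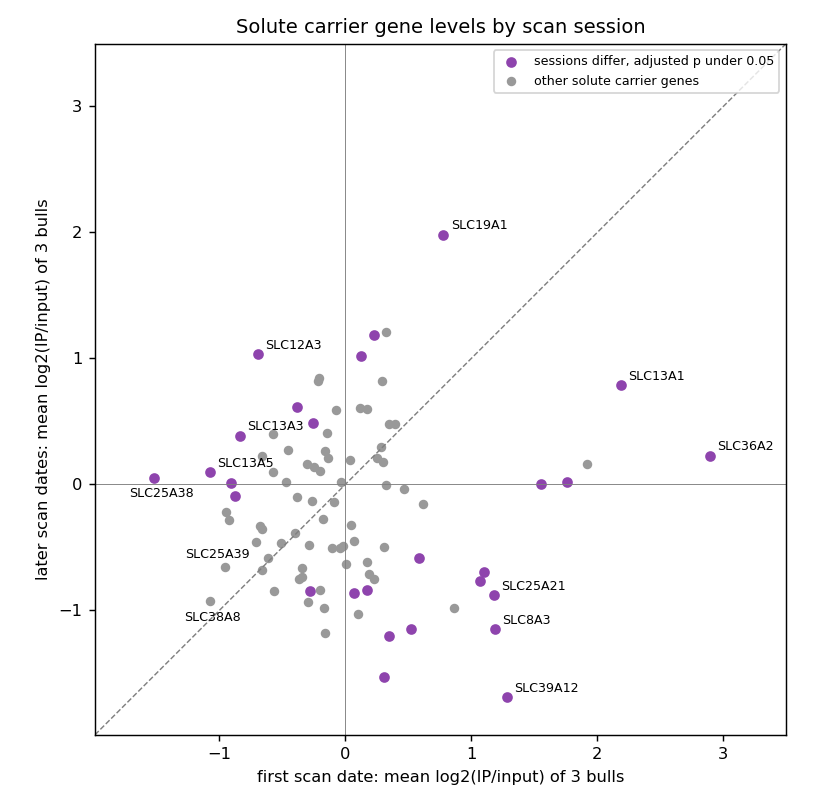
Mean level of each of the 92 solute carrier genes in the 3 bulls of the later scan dates (y axis, log2(IP/input)) against the 3 bulls of the first date (x axis), with genes whose sessions differ in purple and the line of equality dashed. SLC39A12, SLC8A3 and SLC25A21 lie above the median on the first date and below it on the later dates, while SLC13A1 is above 0 in both sessions.

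Within the first date 14 of the 92 genes had levels apart from the median (15.2%, background 12.6%), and within the later dates 55 (59.8%, background 47.1%). Genes past the threshold on both numbered 3 in the same direction (3.26%, against 3.41% of all genes) and 3 in opposite directions (3.26%, against 3.27%). SLC13A1 was above the median on both (2.19 and 0.79 on the first and later dates), and SLC38A8 (-1.08 and -0.93) and SLC25A39 (-0.95 and -0.65) were below it on both. SLC39A12 (1.28 and -1.69), SLC25A21 (1.18 and -0.88) and SLC25A30, a mitochondrial carrier of kidney (1.10 and -0.70), were above it on the first date and below it later.

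Levels were also set against the number of CpGs in a probe. The 383 solute carrier probes held 1.32 CpGs on average, against 2.53 over all probes. No CpG was present in 35.2% of them, against 33.1% of all named probes and 9.85% of all probes. Of the 134 tested, 18.7% had no CpG, against 4.22% of all tested probes. The 25 CpG-free solute carrier probes had median levels of -0.51, 0.69 and -0.54 in subfertile bulls 1, 4 and 5, and of -0.32, 0.62 and -0.81 in high-fertile bulls 2, 3 and 5. Subfertile bull 4 and high-fertile bull 3, both of the first date, stood high, and high-fertile bull 2 of that date did not. The 23 probes with 4 or 5 CpGs had medians of 0.03, -0.12 and -0.05 in the subfertile bulls and -0.50, -0.69 and 0.20 in the high-fertile bulls. Over all 4668 CpG-free tested probes, the medians lay between -0.16 and -0.01 in subfertile and between -0.10 and 0.09 in high-fertile bulls, a narrower spread than among the solute carriers. This spread is a description and was not tested. The CpG-free probes of other named genes were not set beside it, so it is not shown to be particular to solute carriers. SLC39A12, SLC8A3 and SLC25A21, which fell most between sessions with SLC36A2, have CpG-free probes, and that of SLC36A2 holds 1 CpG. Of the genes that rose, the probes of SLC12A3 and SLC25A38 hold 4 and 5, that of SLC13A3 holds 2, and those of SLC13A5 hold 1, 2 and 2.

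**Figure D4:**
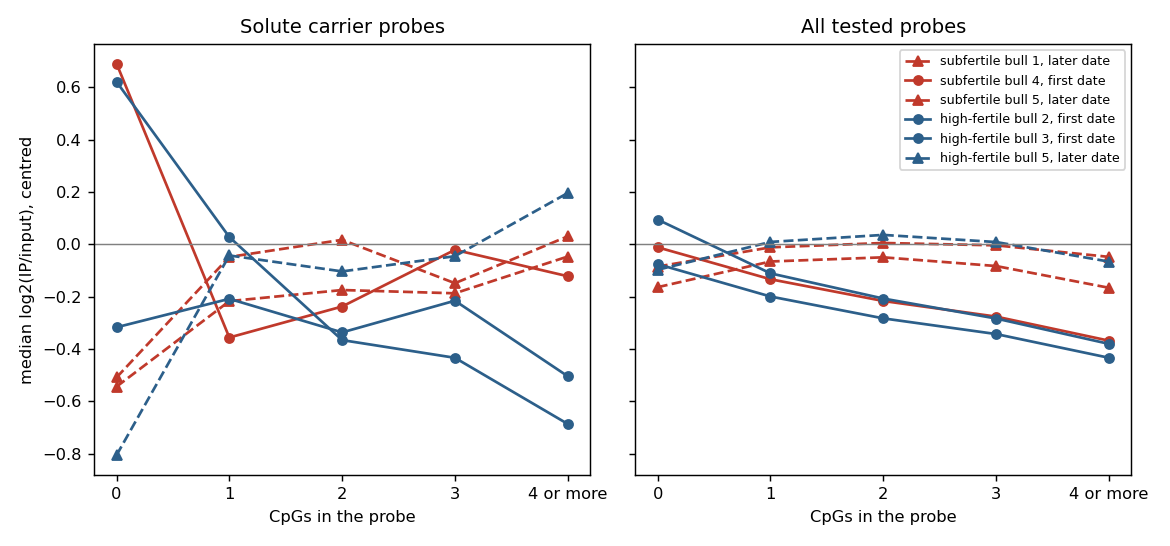
Median level of each bull's array (y axis, log2(IP/input)) by the number of CpGs in the probe (x axis), for the 134 tested solute carrier probes and for all tested probes, with subfertile bulls in red, high-fertile bulls in blue, solid lines for the first scan date and dashed lines for later dates. Among CpG-free solute carrier probes, subfertile bull 4 and high-fertile bull 3 lie at 0.69 and 0.62 and the 3 bulls of the later dates between -0.81 and -0.51.

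In 27 genes 2 or more probes were tested, over spans of 80 to 110185 bases. Probes of 1 gene often disagreed: the median range of their levels was 0.48, and in 15 of the 27 genes their group differences had opposite signs. The widest disagreement in level was in SLC25A11, which exchanges malate for oxoglutarate across the mitochondrial inner membrane. This pair was chosen after its values were seen, and both sequences are given because they lie on opposite sides of the median.
SLC25A11 chr19:26826477-26826536: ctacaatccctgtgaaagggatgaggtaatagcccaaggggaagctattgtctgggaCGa
SLC25A11 chr19:26829517-26829576: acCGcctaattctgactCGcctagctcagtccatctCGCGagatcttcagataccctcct
The first had 0.76, -0.32 and 1.18 in subfertile bulls 1, 4 and 5, and 1.35, 1.27 and 0.76 in high-fertile bulls 2, 3 and 5, a mean of 0.83 (limma, adjusted p = 0.0249) in which the level of subfertile bull 4 is a bound. The second, with 4 CpGs, had -0.48, -1.09 and -1.03 in the subfertile bulls and -1.10, -1.31 and -0.53 in the high-fertile bulls, a mean of -0.92 (limma, adjusted p = 0.0102). The gene mean of -0.04 ± 0.16 showed neither.

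Of the 9 genes with 3 or more tested probes, 0 passed for the group difference and the values were small. SLC20A2, a phosphate carrier, had a difference of 0.31 ± 0.37 over 5 probes, all 5 of them above 0, and SLC17A7, a vesicular glutamate transporter, 0.11 ± 0.31 over 5 probes, of which 2 were below 0. SLC7A6OS had 0.17 ± 0.27 and the glutamine carrier SLC1A5 -0.09 ± 0.31 over 4 probes each. SLC13A5 (0.29 ± 0.51), the zinc transporter SLC39A9 (0.17 ± 0.40) and SLC2A11 (0.09 ± 0.35) lay above 0, and SLC5A6 (-0.14 ± 0.27) and SLC5A8 (-0.11 ± 0.32) below, over 3 probes each. In SLC5A8 the CpG-free probe starting at 69984912 had -0.44, 1.04 and -1.56 in subfertile bulls 1, 4 and 5, against 1.30, 1.71 and -0.51 in high-fertile bulls 2, 3 and 5. Its difference of -1.15 ± 0.70 stood opposite to 0.22 ± 0.31 and 0.59 ± 0.31 at the other 2 probes of the gene, which hold 4 CpGs each.

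**Figure D5:**
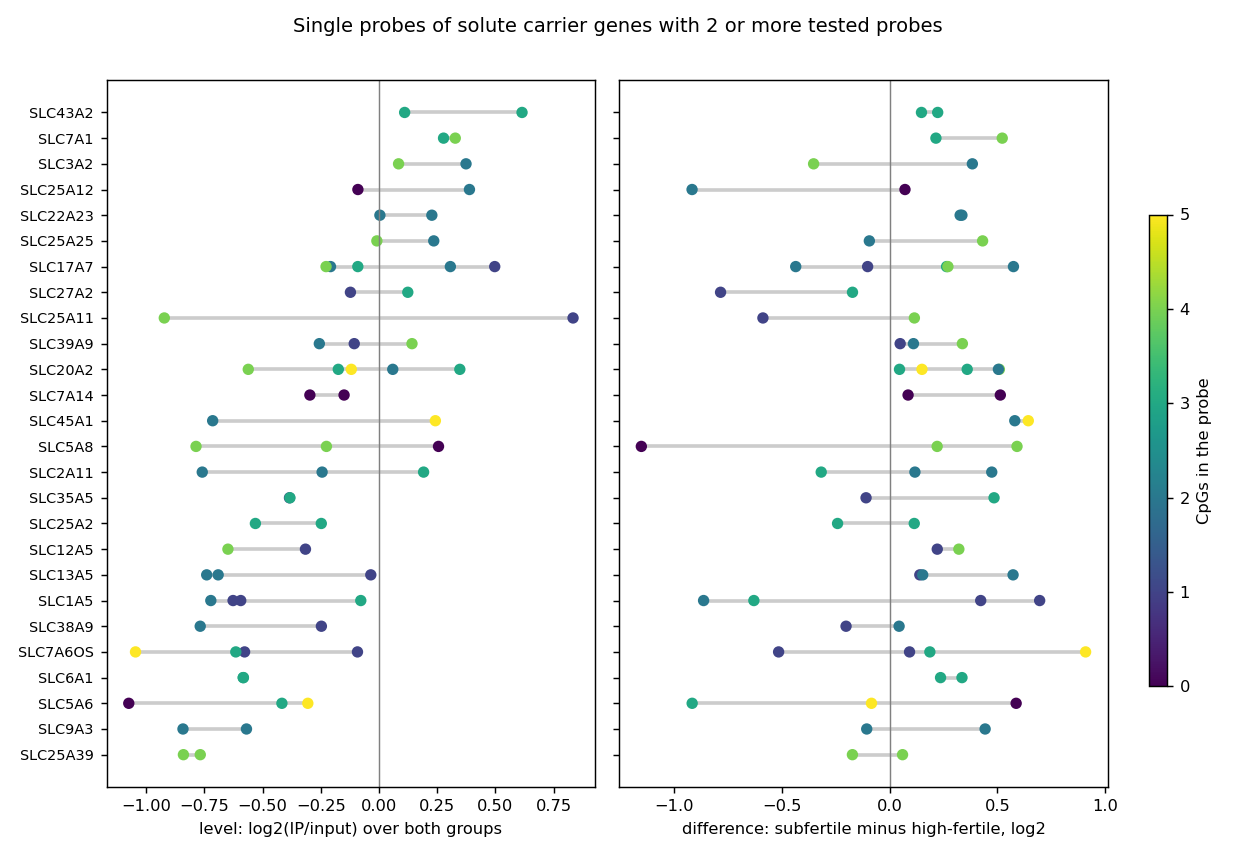
Level (left, log2(IP/input) over both groups) and group difference (right, subfertile minus high-fertile, log2) of the tested probes in solute carrier genes with 2 or more, without 1 gene not reported here, coloured by the number of CpGs. Grey bars join the probes of a gene and cross 0 in 15 genes on the right.

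A list of 26 carriers with known roles in sperm or testis had 15 members on the array and 7 with a tested probe, and 0 of the 7 passed for the group difference or the gene level. The lactate carriers SLC16A1 and SLC16A3 stood apart from each other. SLC16A3 had 0.91, 0.42 and 0.88 in subfertile bulls 1, 4 and 5, against 0.19, 0.25 and 0.67 in high-fertile bulls 2, 3 and 5, with a level of 0.55 ± 0.15 above the median in all 6 bulls. SLC16A1 had -1.05, 0.69 and -0.95 in the subfertile bulls and 0.49, 0.38 and -1.43 in the high-fertile bulls, parting by scan date (it fell by 1.78 on the later dates). SLC22A5 likewise had -1.65, 0.38 and -1.79 in the subfertile bulls and 0.61, -0.07 and -1.14 in the high-fertile bulls, a difference of -0.82 ± 0.69 that was -0.24 with the session as a block. There subfertile bull 1 alone had an IP signal well above background. SLC26A3, which exchanges chloride for bicarbonate, had a difference of 0.51 ± 0.87, and its levels ran between -2.17 and 0.92 over the 6 bulls. The sodium potassium chloride cotransporter SLC12A2 (0.18 ± 0.30), the taurine transporter SLC6A6 (0.17 ± 0.30) and SLC2A8 (0.04 ± 0.37) had the smallest differences of the list.

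The 249 solute carrier probes that were not tested failed on dim input DNA, and 0 carried a non-uniformity mark. Input was not well above background at 78, 217 and 117 of them in subfertile bulls 1, 4 and 5, and at 220, 188 and 57 in high-fertile bulls 2, 3 and 5. Of these probes 44.2% hold no CpG. For the 90 genes with no tested probe, unfiltered differences ran between -1.80 and 1.11 with a median of -0.43, and as their input is dim, they are given as a range without a test.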

How the data were processed

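The deposited scanner files give each spot's intensity unlogged, extracted with Agilent Feature Extraction 10.7.3.1 per the file headers. The log10 ratio per spot in the deposited files is IP over input, and the deposited series table holds log2 values of that ratio. Gene names stand in the files of 3 arrays (19762 probes) and were joined to the others by spot number. From the processed signals, log2(IP/input) was computed and centred per array on the median of 177440 probes, without loess or quantile steps. Dyes were not swapped, so a dye effect cannot be told apart from enrichment. A gene is the mean of at least 1 tested probe. Fits ran over 4286 genes or 110686 probes with limma 3.58.1 in R 4.3.3 (data.table version 1.17.8, plots with matplotlib 3.10.9), 2-sided, with Benjamini-Hochberg adjustment and a threshold of 0.05. The code was also run on simulated data with independent values of 1 common spread. Such data do not show how the fits perform on these arrays. The level test sets the mean of the group means against 0. The session test has group as a second term. Replicates are bulls, and 6 arrays limit the precision. Of the 182 symbols, 167 were found in the RefSeq gene list (assembly NDDB_SH_1), which served for symbols only. Members, gene lists, classes and naming rules were chosen with earlier results of these data known. Named were the 8 highest and 8 lowest levels, up to 4 genes per session direction, up to 3 genes per transport class by p, genes with at least 3 tested probes, the sperm list, and probes whose groups did not overlap or with extreme levels. Rules for gene differences with groups apart named none. Alternatives covered background correction, filters, centring, the series values, CpG number, session, slide and each bull left out. Levels within a session and the test of group by session were added after the data were seen. Results of 2 named genes are not reported here.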

Additional observations from a re-analysis of the deposited data

How the results depend on the processing

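No paired analysis was possible, since the labels pair no bulls and the number 5 in both groups is only a replicate number. The count of 0 genes differing between groups held under every alternative run except the later dates alone (3 genes), and that of 0 probes under all. The median gene difference was 0.08, and -0.29 without the filter on dim probes (all genes -0.25), and -0.02 to 0.09 with 1 bull left out. Gene levels past the threshold numbered 4 (4.35%, background 3.29%). They numbered 16 with normexp, 2 (of 43 tested) where IP also had to be well above background on all arrays, and 0 to 3 with 1 bull left out. With arrays centred on tested probes, and relative to probes of equal CpG number, 0 passed. There were 32 with session as a term (34.8%, background 26.1%), 14 on the first date (15.2%, background 12.6%) and 55 on the later dates (59.8%, background 47.1%). Probe levels numbered 24 (17.9%, background 17.7%), and 37 (of 383) without the filter and 13 (of 51) with the IP filter. They numbered 52 with session as a term (38.8%, background 34.6%) and 78 on the later dates (58.2%, background 46.1%). With 1 bull left out they numbered 2 to 29, lowest without subfertile bull 5. Where no background is given here, no share over all genes or probes was set beside the count. Genes differing between sessions numbered 27, and 66 (of 182) without the filter, 2 (of 9) with at least 3 probes, and 0 to 37 with 1 bull left out. Such probes numbered 22, and 50 with normexp, 12 relative to equal CpG number, and 0 to 53 with 1 bull left out. The sign turned for the level of SLC25A38 on the later dates (0.055) and of SLC22A5 on the first date (0.31), and for the session difference of SLC13A3 without the filter (-0.13). The causes of these changes were not tested. For single named genes and probes, 378 repeats kept direction and side of the threshold, 24 came to pass it and 80 no longer did. The main limits are 3 bulls per group, 1 or 2 probes for most genes, dim IP signals in subfertile bull 4 and high-fertile bull 2, and scan sessions that hold different bulls, so that session and bull cannot be told apart.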
